A study of Mus musculus with 6 samples.

Results

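The death receptor and necroptosis genes examined here are 10 genes of the pathway that runs from the receptor of tumor necrosis factor (TNF) to caspase activation or to membrane rupture: Tnfrsf1a, Traf2, Birc2, Birc3, Ripk1, Fadd, Casp8, Cflar, Ripk3 and Mlkl. They were chosen by name as genes of the pathway, with earlier results of these data known, and all 10 were found among the 24061 gene rows of the deposited count table by their current symbols. Birc2 (gene ID 11797) and Birc3 (gene ID 11796) each carry the symbol of the other as a former name, and the current names are used throughout. The cells were fibroblasts grown from fibrotic lungs of TGF-alpha transgenic mice, and every library carries that transgene. In 3 libraries (numbered 4 to 6) the cells had received a stealth siRNA against Wt1, a zinc finger transcription factor of mesothelium and mesenchyme, and in the other 3 (numbered 1 to 3) a stealth control siRNA. The sources used here give neither the promoter of the transgene, the age of the mice nor the time after transfection. Nothing in them tells how many cultures or animals stand behind the 3 libraries of an arm, and the p-values therefore measure the spread between these libraries, which may be technical.

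When TNF binds its receptor Tnfrsf1a, the kinase Ripk1 and the adaptors Tradd and Traf2 gather at the receptor, and the ubiquitin ligases Birc2 and Birc3 modify Ripk1 so that NF-kB is activated and the cell survives. Where that signal is not sustained, Ripk1 and the adaptor Fadd recruit caspase 8, which can cleave the executioner caspases. Cflar, also called c-FLIP, is a relative of caspase 8 without protease activity that pairs with it, and its long form holds caspase 8 in a restricted state. Where caspase 8 is not active, Ripk1 and Ripk3 can assemble and Ripk3 phosphorylates Mlkl, the protein that breaks the plasma membrane in necroptosis.

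Total counts were 27.5 to 32.1 (in units of 1e6) in the Wt1 siRNA libraries and 26.1 to 30.4 in the control libraries, so that 3 counts are worth 0.0926 to 0.113 counts per 1e6 counts of the library, scaled by TMM (CPM). Wt1 itself averaged 9.31 ± 1.83 CPM in the Wt1 siRNA libraries and 52.0 ± 3.50 CPM in the controls (SD, n = 3 each; edgeR, adjusted p = 5.98e-06). The 10 fibroblast markers were all tested, with 5 higher and 2 lower. Their summed level was 41284 to 48565 CPM in the Wt1 siRNA libraries and 28750 to 40195 CPM in the controls. Much of this sum was the collagen gene Col1a1, with a mean of 17421 CPM after Wt1 siRNA and 7982 CPM in the controls. The 2 lower markers were Col3a1 and Pdgfra, the latter with 523 ± 96.4 CPM after Wt1 siRNA and 1181 ± 70.9 CPM in the controls. The summed level of 6 mesothelial markers, with Wt1 among them, was 144 to 187 CPM in the Wt1 siRNA libraries and 226 to 279 CPM in the controls, with 2 markers higher and 3 lower. For 12 macrophage and leukocyte markers the summed level was 29.4 to 36.6 CPM after Wt1 siRNA and 30.7 to 36.5 CPM in the controls. Only 6 of these 12 were tested and none was called, and Cd3e was at 0. For 10 epithelial markers the summed level was 40.5 to 46.8 CPM after Wt1 siRNA and 47.5 to 64.3 CPM in the controls. Only 5 of these 10 were tested, with 1 lower, and Scgb1a1 was at 0. For 8 endothelial markers, with 7 tested and 1 lower, the summed level was 86.1 to 108 CPM after Wt1 siRNA and 102 to 127 CPM in the controls. The part of these markers' cells in the results below was not tested, and in bulk RNA fewer cells of a type and less RNA per cell cannot be told apart.

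After Wt1 siRNA, Cflar was lower, its chromosomal neighbour Casp8 was higher, and Tnfrsf1a was lower. The other 7 genes, among them both necroptosis effectors Ripk3 and Mlkl, did not pass the test. In counts, 1 of the 10 was higher and 2 were lower at an adjusted p below 0.05 (edgeR quasi-likelihood test, Benjamini-Hochberg over all 14190 genes tested). Over all genes tested 19.3% were called, 9.05% (1284 genes) higher and 10.3% (1459 genes) lower, and against that background 3 calls among 10 genes are no result about the 10 as a group. With scaling by library size alone the calls over all genes were 855 higher and 1829 lower. All 10 genes passed the filter on low counts. Their log2 fold changes had a median of -0.07, against 0.0035 over all genes tested. Both groups were fully apart in 4 of the 10, as they were in 36.4% of all genes tested.

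**Figure D1:**
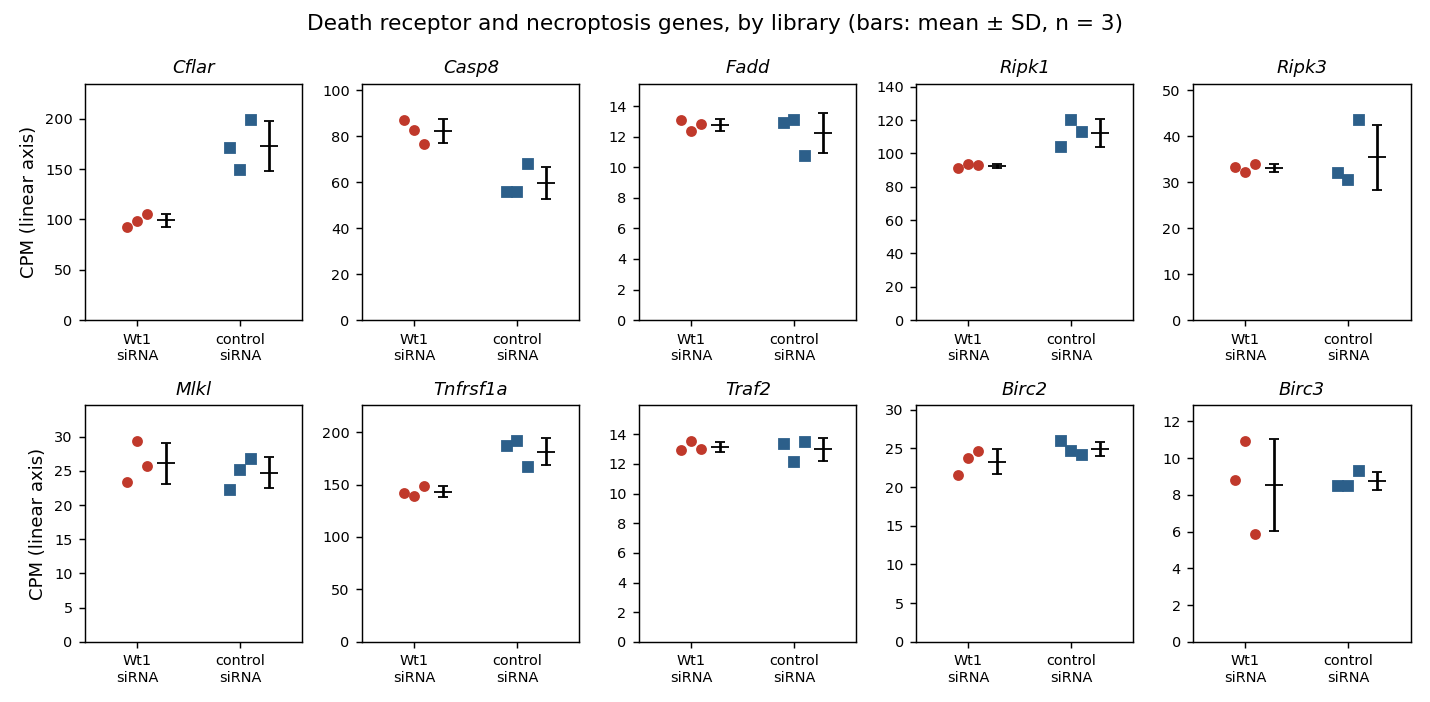
Level of each of the 10 genes in CPM (linear axis from 0) in the 3 Wt1 siRNA libraries (red circles) and the 3 control libraries (blue squares), with the mean ± SD beside the points. The groups separate for Cflar, Casp8, Ripk1 and Tnfrsf1a and overlap for the other 6 genes.

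The receptor Tnfrsf1a (gene ID 21937, GRCm38 chromosome 6, 125349723 to 125362483) had 142, 139 and 149 CPM in Wt1 siRNA libraries 4 to 6, against 186, 191 and 167 CPM in control libraries 1 to 3. The groups did not overlap, and the closest pair was Wt1 siRNA library 6 and control library 3. The means were 143 ± 5.01 CPM after Wt1 siRNA and 181 ± 13.1 CPM in the controls (SD, n = 3 each). The log2 fold change was -0.34 ± 0.10 (SE, edgeR, adjusted p = 0.0366), or 1.27-fold lower. The call was lost in most fits that lacked a library. Leaving out Wt1 siRNA library 4, 5 or 6 gave an adjusted p of 0.154, 0.116 or 0.0596, and leaving out control library 1 or 2 gave 0.103 or 0.0711. Without control library 3 the call was kept (0.039). The log2 fold change stayed between -0.40 and -0.30 over the 6 sets that lacked a library.

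Among the proteins that sit on the receptor, Ripk1 (gene ID 19766, chromosome 13, 34002225 to 34035170), the kinase with a scaffold role in survival and a catalytic role in death, had 91.3, 93.4 and 93.1 CPM in the Wt1 siRNA libraries against 104, 120 and 113 CPM in the controls. The groups did not overlap, and the SD was 1.10 CPM after Wt1 siRNA and 8.30 CPM in the controls, but the log2 fold change of -0.28 ± 0.10 did not pass the test (edgeR, adjusted p = 0.0809, 95% interval -0.50 to -0.05). It passed with library size scaling (-0.36, edgeR, adjusted p = 0.0279). That scaling put the median log2 fold change over all genes tested at -0.0824, against 0.0035 with TMM. The annotated exons of Ripk1 share 37 bases with Serpinb6a on the opposite strand. The strand setting of the counts is not given in the sources used here, and Serpinb6a, a serine protease inhibitor, had 420 ± 21.4 CPM after Wt1 siRNA and 344 ± 11.3 CPM in the controls (log2 fold change 0.29 ± 0.10, edgeR, adjusted p = 0.0555).

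Traf2 (gene ID 22030, chromosome 2, 25517982 to 25546940), the adaptor that carries the IAP ligases to the receptor, had 12.9, 13.5 and 13.0 CPM in the Wt1 siRNA libraries and 13.4, 12.1 and 13.5 CPM in the controls. Its log2 fold change was 0.02 ± 0.16 with a 95% interval of -0.32 to 0.36, and the groups overlapped. Birc2 (chromosome 9, 7818226 to 7837131), the ligase cIAP1, had 21.5, 23.7 and 24.7 CPM after Wt1 siRNA and 25.9, 24.7 and 24.2 CPM in the controls (log2 fold change -0.10 ± 0.13, 95% interval -0.38 to 0.18). Birc3 (chromosome 9, 7847468 to 7873205), the ligase cIAP2 and an NF-kB target, had 8.81, 10.9 and 5.88 CPM after Wt1 siRNA and 8.49, 8.48 and 9.32 CPM in the controls. The Wt1 siRNA libraries held both the highest and the lowest Birc3 value of the 6, and its SD was 2.53 CPM there against 0.483 CPM in the controls. Birc2 and Birc3 lie 10337 bases apart and are similar in sequence, so that reads could be split between them and their single values are uncertain. The ratio of Birc3 to Birc2 reads was 0.369 ± 0.116 in the Wt1 siRNA libraries and 0.352 ± 0.0300 in the controls, with overlapping groups.

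The death-inducing complex is built from Fadd, Casp8 and Cflar. Fadd (gene ID 14082, chromosome 7, 144578323 to 144582441), the adaptor that joins receptors to caspase 8, had 13.1, 12.4 and 12.8 CPM in the Wt1 siRNA libraries and 12.9, 13.1 and 10.8 CPM in the controls. The groups overlapped, with a log2 fold change of 0.06 ± 0.17 and a 95% interval of -0.30 to 0.42. Casp8 (gene ID 12370, chromosome 1, 58795233 to 58847503) had 87.1, 82.6 and 76.7 CPM after Wt1 siRNA against 55.6, 55.7 and 67.7 CPM in the controls. All Wt1 siRNA libraries lay above all controls, and control library 3 was the highest of the controls. The means were 82.1 ± 5.23 CPM after Wt1 siRNA and 59.6 ± 6.94 CPM in the controls, a log2 fold change of 0.46 ± 0.12 (edgeR, adjusted p = 0.0175), or 1.38-fold higher. The call was lost when Wt1 siRNA library 4 or 5 was left out (adjusted p = 0.0999 or 0.0510) and when control library 1 was (0.0580).

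Cflar (gene ID 12633, chromosome 1, 58711311 to 58758884) was lower and had the smallest p of the 10 genes. It had 92.9, 98.9 and 106 CPM in the Wt1 siRNA libraries against 171, 149 and 199 CPM in the controls, and the groups did not overlap. The means were 99.2 ± 6.45 CPM after Wt1 siRNA and 173 ± 24.9 CPM in the controls, a log2 fold change of -0.80 ± 0.12 (edgeR, adjusted p = 9.53e-04), or 1.75-fold lower. It remained lower at an adjusted p of 0.0131 or less under all 12 alternatives of processing and left-out libraries. The deposited counts are per gene, so the long and short forms of Cflar, which act differently on caspase 8, are not separated. The genes whose centred log2 CPM over the 6 libraries ran closest to Cflar were Enc1, Tulp4 and Slc30a4, with root mean square differences of 0.0457, 0.0472 and 0.0600 log2 units.

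**Figure D2:**
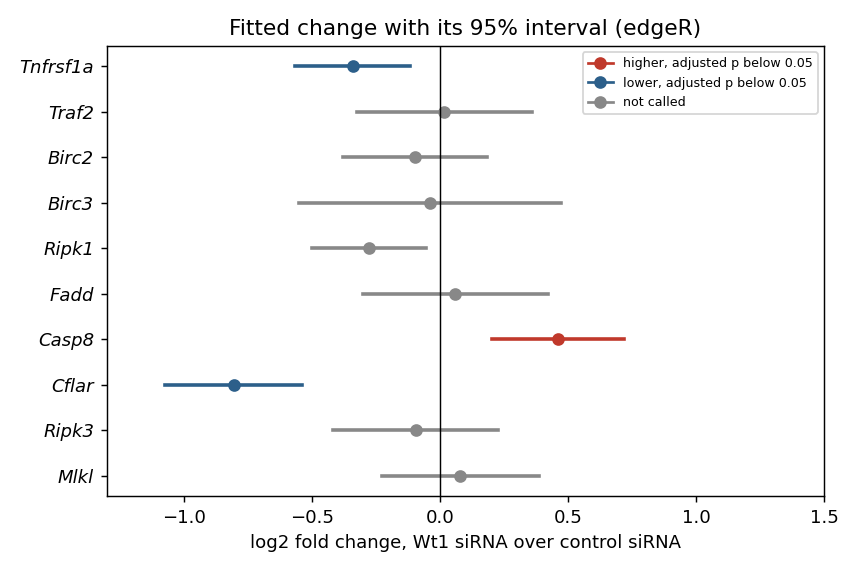
Log2 fold change of each gene (Wt1 siRNA over control siRNA, edgeR) with its 95% interval, ordered from the receptor to the necroptosis effectors. Cflar at -0.80 and Tnfrsf1a at -0.34 are lower, Casp8 at 0.46 is higher, and the interval of Ripk1 leaves out 0 although its adjusted p of 0.0809 missed the threshold.

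The ratio of the inhibitor to the protease was read within each library. For each Casp8 read there were 1.07, 1.20 and 1.38 Cflar reads in Wt1 siRNA libraries 4 to 6, against 3.09, 2.68 and 2.94 in control libraries 1 to 3. The mean ratio was 1.21 ± 0.157 after Wt1 siRNA and 2.90 ± 0.204 in the controls, a log2 difference of -1.26. The groups did not overlap. The exact two-sided permutation test gave p = 0.10, which is the smallest p that 3 against 3 libraries allow. A ratio within a library does not depend on the scaling between libraries. Since the genes differ in length, it is a ratio of reads and not of transcripts. Both genes passed the test on their own in opposite directions, so the ratio restates their calls and is not separate support.

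**Figure D3:**
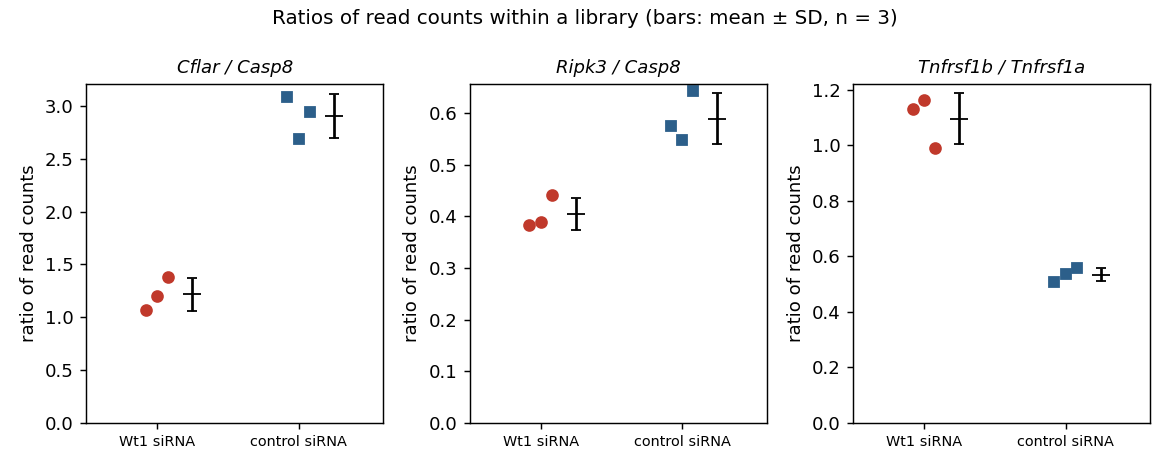
Ratio of read counts of 2 genes within a library, for the Wt1 siRNA libraries (red circles) and the control libraries (blue squares), with mean ± SD (n = 3). Cflar to Casp8 averages 1.21 after Wt1 siRNA and 2.90 in the controls, Ripk3 to Casp8 0.405 after Wt1 siRNA and 0.589 in the controls, and Tnfrsf1b to Tnfrsf1a 1.10 after Wt1 siRNA and 0.534 in the controls. The ratios computed whose groups overlapped (Mlkl to Ripk3, Ripk3 to Ripk1 and Birc3 to Birc2) are not shown.

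Cflar and Casp8 are neighbours on chromosome 1, with 36349 bases between their annotated spans, and are read in the same direction. Of the other protein-coding genes within 100 kb of either, Flacc1 had 0.509 ± 0.0672 CPM after Wt1 siRNA and 0.432 ± 0.214 CPM in the controls and did not pass the test. Trak2, an adaptor of mitochondrial transport that lies 52946 bases from Casp8, was lower, with 52.1 ± 4.61 CPM after Wt1 siRNA and 73.3 ± 7.17 CPM in the controls (log2 fold change -0.49 ± 0.12, edgeR, adjusted p = 0.0142). The 250 bases before a RefSeq transcript start of each gene that passed the test are shown so that the promoters can be compared (RefSeq, GRCm38.p6, all on the plus strand, 5′ to 3′). The start of Tnfrsf1a is that of its whole annotated span, while those of Cflar and Casp8 lie 180 and 7269 bases inside theirs, so these windows overlap the spans printed above and other starts of the genes are not shown. Capitals mark matches to any of 4 motifs searched on both strands, namely GGG and TTTCC with any 2 bases between them (an NF-kB site), AANNGAAA (an interferon regulatory factor core), a pair of TTTC with any 2 bases between them (an interferon response element) and GNGNGGGNG (a loose form of the GC-rich site shared by WT1 and EGR1).
Cflar chr1:58711241-58711490: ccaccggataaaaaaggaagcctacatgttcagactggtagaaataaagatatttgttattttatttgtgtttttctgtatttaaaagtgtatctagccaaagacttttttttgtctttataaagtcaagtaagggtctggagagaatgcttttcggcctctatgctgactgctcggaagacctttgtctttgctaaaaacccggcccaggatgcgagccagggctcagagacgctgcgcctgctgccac
Casp8 chr1:58802252-58802501: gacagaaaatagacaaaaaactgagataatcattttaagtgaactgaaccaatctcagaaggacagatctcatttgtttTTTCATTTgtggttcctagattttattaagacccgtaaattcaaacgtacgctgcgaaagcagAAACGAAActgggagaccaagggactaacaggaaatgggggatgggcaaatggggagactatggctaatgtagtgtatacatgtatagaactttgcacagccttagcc
Tnfrsf1a chr6:125349473-125349722: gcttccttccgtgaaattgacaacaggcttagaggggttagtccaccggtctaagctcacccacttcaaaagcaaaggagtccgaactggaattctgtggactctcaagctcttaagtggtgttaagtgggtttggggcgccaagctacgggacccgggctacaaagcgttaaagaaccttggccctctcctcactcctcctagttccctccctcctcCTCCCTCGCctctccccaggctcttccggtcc

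In these windows Cflar held none of the 4 motifs, Casp8 held the interferon regulatory factor core at positions -171 to -164 and -108 to -101 (counted back from the base before the start), and Tnfrsf1a held the WT1 and EGR1 form at -32 to -24. The motifs were chosen with these results in view, and a match is a description of letters only. Over the 12 windows of the 10 genes, AANNGAAA was found in 3 (Casp8, Birc2 and Birc3) and GNGNGGGNG in 7 (Traf2, Tnfrsf1a, Fadd, Mlkl, Birc2, Birc3 and Ripk1). Of all 32841 RefSeq windows of that length 21.3% and 35.8% held them. The NF-kB site and the interferon response element were in 0 of the 12 windows, and in 1.41% and 2.98% of all windows. Matches that overlap, such as 3 in Birc2 and 3 in Fadd, were counted once per window.

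Neither necroptosis effector passed the test. Ripk3 (gene ID 56532, chromosome 14, 55784995 to 55788857), the kinase that activates Mlkl, had 33.4, 32.2 and 33.8 CPM after Wt1 siRNA and 32.0, 30.5 and 43.6 CPM in the controls. Control library 3 stood above all other libraries and the groups overlapped (log2 fold change -0.09 ± 0.15, 95% interval -0.42 to 0.23, and 0.08 without control library 3). Mlkl (gene ID 74568, chromosome 8, 111311255 to 111338479), the membrane-breaking pseudokinase, had 23.4, 29.3 and 25.7 CPM after Wt1 siRNA and 22.3, 25.2 and 26.8 CPM in the controls (0.08 ± 0.14, 95% interval -0.22 to 0.39). For each read of Casp8, which restrains necroptosis, there were 0.383, 0.390 and 0.441 reads of Ripk3 after Wt1 siRNA, against 0.576, 0.548 and 0.644 in the controls (exact two-sided permutation p = 0.10, the smallest possible). This ratio carries the call of Casp8 and is not a separate result about Ripk3. Mlkl to Ripk3 stood at 0.791 ± 0.108 after Wt1 siRNA and 0.711 ± 0.106 in the controls, and Ripk3 to Ripk1 at 0.358 ± 0.0113 after Wt1 siRNA and 0.317 ± 0.0667 in the controls, both with overlapping groups. In all 6 ratios were computed, none of which could reach an adjusted p below 0.05 in a design of 3 against 3.

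Levels of different genes were compared per kilobase of merged exons (GENCODE M21), a scale on which the length of the isoforms in use can still shift a gene. Tnfrsf1a was the highest of the 10 in both groups, at 66.5 ± 2.32 CPM per kilobase after Wt1 siRNA and 84.1 ± 6.06 in the controls. After Wt1 siRNA it was followed by Casp8 at 28.4 ± 1.81, Ripk3 at 16.8 ± 0.429, Ripk1 at 13.6 ± 0.161, Mlkl at 13.0 ± 1.49 and Cflar at 12.6 ± 0.820 CPM per kilobase. In the controls it was followed by Cflar at 22.0 ± 3.16, Casp8 at 20.6 ± 2.40, Ripk3 at 17.9 ± 3.62, Ripk1 at 16.5 ± 1.22 and Mlkl at 12.3 ± 1.14 CPM per kilobase. By its mean Cflar thus stood at rank 6 in the Wt1 siRNA libraries and at rank 2 in the controls. Its libraries also overlapped in level with those of rank 4, which was Ripk1 after Wt1 siRNA and Ripk3 in the controls. Neighbours whose libraries overlapped in level were Ripk1 and Mlkl and then Mlkl and Cflar after Wt1 siRNA, and Cflar and Casp8, Casp8 and Ripk3, and Ripk3 and Ripk1 in the controls. Birc2, Traf2, Fadd and Birc3 closed the order in both groups, from 6.40 down to 2.01 CPM per kilobase after Wt1 siRNA and from 6.85 down to 2.07 in the controls.

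Another 124 genes of the pathway, in 8 lists, were read from the same fit, and 116 of them passed the filter on low counts. Of these 13 were higher and 24 lower (edgeR, adjusted p below 0.05), and the median of their log2 fold changes was -0.06. The shares over all genes tested were 9.05% higher and 10.3% lower. In 49 of the 116 the groups did not overlap, where 36.4% of all genes tested showed this.

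**Figure D4:**
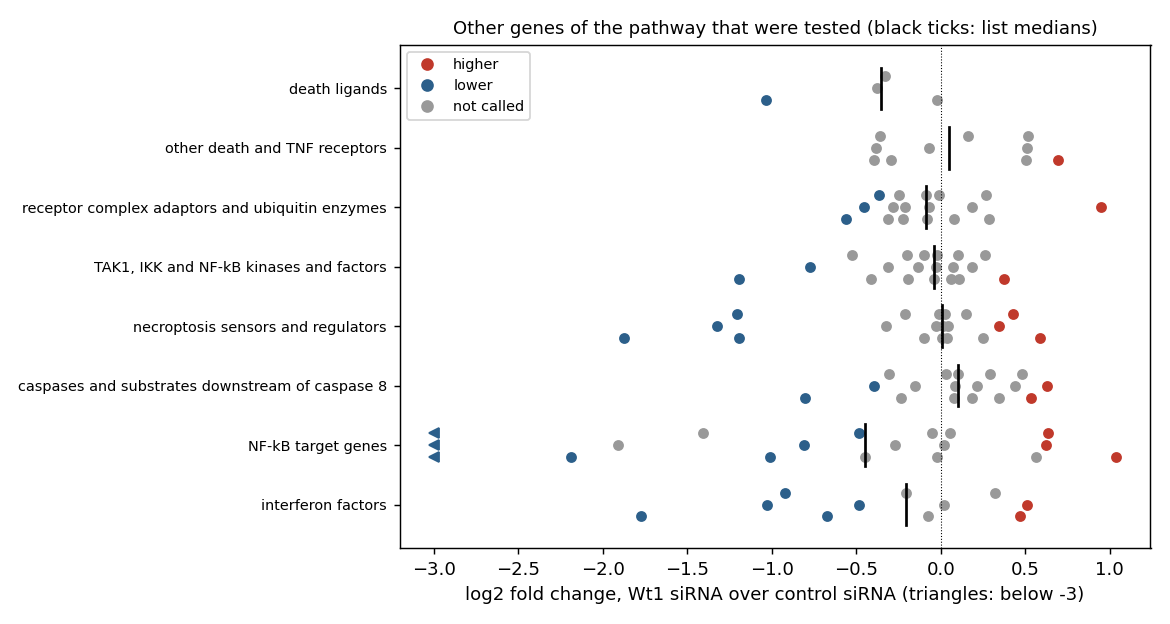
Log2 fold change (Wt1 siRNA over control siRNA) of each of the 116 tested genes in 8 lists, coloured by the call, with the list median as a black tick and triangles for values below -3. The NF-kB target genes have the lowest median of the 8 lists (-0.45) and both higher and lower members, and the median of the caspase list is 0.10.

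Of 8 TNF family ligands in the table only Tnfsf10, Lta, Tnfsf12 and Tnfsf15 passed the filter. Tnf and Ltb had 0 reads in all 6 libraries, which allows up to 0.0926 to 0.113 CPM in a library at 3 counts (counting error only). Fasl had 7 reads in Wt1 siRNA library 4 and 0 in the others, and Tnfsf14 had 3 reads in control library 3. Tnfsf10, the ligand TRAIL, had 2.80 ± 0.752 CPM after Wt1 siRNA and 2.84 ± 0.395 CPM in the controls. Tnfsf15, the ligand TL1A of the receptor Tnfrsf25, was the one ligand that passed. It had 117, 96.7 and 155 CPM after Wt1 siRNA against 270, 211 and 276 CPM in the controls, with no overlap (log2 fold change -1.03 ± 0.17, edgeR, adjusted p = 0.00131). Tnfrsf25 itself, the death receptor for that ligand, had 0 to 20 reads per library and was not tested.

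Among 10 tested receptors 1 was higher and 0 were lower (edgeR), and 5 had an unadjusted p below 0.05. Over all 14190 genes tested, 4551 had such a p. Tnfrsf1b, the second TNF receptor, which lacks a death domain and binds Traf2, had 160, 162 and 148 CPM after Wt1 siRNA against 94.7, 103 and 92.7 CPM in the controls. The groups did not overlap (log2 fold change 0.70 ± 0.10, edgeR, adjusted p = 7.81e-04), and Tnfrsf1b was past the threshold under all 12 alternatives. There were 1.13, 1.16 and 0.991 reads of Tnfrsf1b for each read of Tnfrsf1a after Wt1 siRNA, against 0.508, 0.537 and 0.557 in the controls. That ratio likewise restates the calls of its genes. Fas had 11.9 ± 2.85 CPM after Wt1 siRNA and 8.34 ± 2.42 CPM in the controls (adjusted p = 0.185, edgeR). Tnfrsf10b, the mouse TRAIL receptor, had 91.8 ± 10.1 CPM after Wt1 siRNA and 82.1 ± 4.59 CPM in the controls (adjusted p = 0.370, edgeR).

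Of 17 tested adaptors and ubiquitin enzymes of the receptor complex 1 was higher and 3 were lower, with a median of -0.08. Spata2, which links the deubiquitinase Cyld to the complex, had 36.1 ± 1.07 CPM after Wt1 siRNA and 18.7 ± 0.848 CPM in the controls (log2 fold change 0.95 ± 0.12, edgeR, adjusted p = 3.34e-04). Cyld, which removes ubiquitin chains from Ripk1, had 42.0 ± 3.46 CPM after Wt1 siRNA and 54.1 ± 3.97 CPM in the controls (-0.37 ± 0.12, adjusted p = 0.0487). Traf3, an adaptor that restrains noncanonical NF-kB, had 18.4 ± 1.19 CPM after Wt1 siRNA and 27.1 ± 2.11 CPM in the controls (-0.56 ± 0.13, adjusted p = 0.0126). Xiap, a caspase inhibitor, had 68.7 ± 9.65 CPM after Wt1 siRNA and 94.2 ± 15.3 CPM in the controls with overlapping groups (-0.46 ± 0.14, adjusted p = 0.0441). The call of Cyld was lost without any one of the 6 libraries (adjusted p = 0.0633 to 0.162) and with no filter (0.0580). That of Xiap was lost without control library 1 or 3 or Wt1 siRNA library 4 or 5 (0.147 to 0.162), and that of Traf3 without Wt1 siRNA library 4 (0.0563) or 5 (0.0528).

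Of 19 kinases and factors on the way to NF-kB 1 was higher and 2 were lower, with a median of -0.04. Map3k7, the kinase TAK1 that is activated at the receptor complex, had 81.9, 87.2 and 76.6 CPM after Wt1 siRNA against 143, 135 and 142 CPM in the controls (log2 fold change -0.77 ± 0.10, edgeR, adjusted p = 3.87e-04). Ikbkb, the kinase IKK-beta, had 16.0, 13.8 and 10.1 CPM after Wt1 siRNA against 32.7, 32.9 and 25.9 CPM in the controls (-1.20 ± 0.18, adjusted p = 9.42e-04). Both were past the threshold under all 12 alternatives, and in neither did the groups overlap. The IKK partners Chuk and Ikbkg did not pass, with log2 fold changes of 0.26 ± 0.15 and 0.11 ± 0.13. Nfkb1, the p105 and p50 subunit gene, had 63.5 ± 3.36 CPM after Wt1 siRNA and 49.0 ± 2.49 CPM in the controls (0.37 ± 0.11, adjusted p = 0.0320), and its call was lost without any one library (0.0553 to 0.0956) and with library size scaling (0.106).

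Of 19 genes that start or adjust necroptosis 3 were higher and 4 lower, with a median of 0.01. The nucleic acid sensors Zbp1, which binds Ripk3, and Eif2ak2 were lower, at -1.87 ± 0.20 and -1.20 ± 0.11 on the log2 scale (edgeR, adjusted p = 1.44e-04 and 3.52e-05). Both are interferon-stimulated genes. Plk1 and Aurka, mitotic kinases, were lower at -1.32 ± 0.18 and -1.19 ± 0.20 (adjusted p = 4.88e-04 and 0.00186). Zbp1 had 9.94 ± 1.78 CPM after Wt1 siRNA and 36.4 ± 9.69 CPM in the controls. Higher were Pgam5, a mitochondrial phosphatase, at 39.0 ± 1.03 CPM after Wt1 siRNA and 26.0 ± 2.30 CPM in the controls (0.59 ± 0.12, edgeR, adjusted p = 0.00603), the inositol phosphate kinase Ipmk (0.43 ± 0.12, adjusted p = 0.0315) and the phosphatase Ppm1b (0.35 ± 0.10, adjusted p = 0.0357). Ipmk lost its call with library size scaling (0.0964) and without Wt1 siRNA library 4, 5 or 6 or control library 2 or 3 (0.0643 to 0.104). Ppm1b lost it with library size scaling (0.0901) and without Wt1 siRNA library 4, 5 or 6 or control library 1 or 3 (0.0538 to 0.144). Of 11 interferon receptors, STATs and IRFs 2 were higher and 5 lower, with a median of -0.21. Stat2, Irf7 and Ifnar1 had log2 fold changes of -1.03 ± 0.14, -1.77 ± 0.26 and -0.67 ± 0.11. The higher ones were the interferon gamma receptor genes Ifngr1 at 0.51 ± 0.10 and Ifngr2 at 0.47 ± 0.10 (adjusted p = 0.00396 and 0.00783, edgeR), and the call of Ifngr2 was lost without Wt1 siRNA library 4 (0.0585).

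Of 17 caspases and proteins downstream of caspase 8, 2 were higher and 2 lower, with a median of 0.10. Casp2 had 28.5 ± 3.46 CPM after Wt1 siRNA and 18.4 ± 2.08 CPM in the controls (log2 fold change 0.63 ± 0.15, edgeR, adjusted p = 0.0113). Casp9, the initiator caspase of the mitochondrial pathway, had 32.7 ± 3.78 CPM after Wt1 siRNA and 22.6 ± 1.98 CPM in the controls (0.53 ± 0.14, adjusted p = 0.0177). Dffa, the inhibitor of the DNase that cuts DNA in apoptosis, had 6.17 ± 0.672 CPM after Wt1 siRNA and 10.7 ± 1.02 CPM in the controls (-0.80 ± 0.20, adjusted p = 0.0138). The calls of Casp2, Casp9 and Dffa were lost without Wt1 siRNA library 4 (adjusted p = 0.0790, 0.110 and 0.0633), and that of Casp9 also without control library 1 (0.0584). Bid, which caspase 8 cuts to reach mitochondria, had 26.0 ± 2.37 CPM after Wt1 siRNA and 24.4 ± 1.37 CPM in the controls and did not pass (adjusted p = 0.705, edgeR).

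Of 19 tested NF-kB target genes 3 were higher and 7 lower, with a median of -0.45 that was the same with Cxcl5, at 0 reads in all Wt1 siRNA libraries, set to its bound of 3 counts per library. Mmp3, the protease stromelysin, had 40.1, 27.4 and 55.9 CPM after Wt1 siRNA against 191, 162 and 209 CPM in the controls (log2 fold change -2.19 ± 0.21, edgeR, adjusted p = 6.77e-05). Vcam1, a leukocyte adhesion protein, had 283 ± 24.0 CPM after Wt1 siRNA and 497 ± 30.3 CPM in the controls (-0.81 ± 0.11, adjusted p = 3.63e-04). Cxcl10, a chemokine that also responds to interferon, had 0.404 ± 0.257 CPM after Wt1 siRNA and 7.05 ± 2.78 CPM in the controls (-4.13 ± 0.49, adjusted p = 2.14e-04). Gadd45b, a stress protein that restrains JNK signalling, was higher, with 57.3 ± 5.85 CPM after Wt1 siRNA and 27.8 ± 4.88 CPM in the controls (1.04 ± 0.15, adjusted p = 6.63e-04). The neutrophil chemokine Cxcl5 had 0 reads in each Wt1 siRNA library against 11, 11 and 20 reads in the controls, and its relative Cxcl1 had 0, 0 and 2 reads after Wt1 siRNA against 11, 12 and 17 in the controls. Both were called lower (edgeR, adjusted p = 0.0170 for Cxcl5 and 0.0366 for Cxcl1). The call of Cxcl1 was lost without any one library (0.0521 to 0.164) and with no filter (0.138). That of Cxcl5 was lost without control library 3 (0.0814) or Wt1 siRNA library 4 (0.0721) or 5 (0.0561). With at least 1 CPM required in 3 libraries neither was tested. Tnfaip3 and Nfkbia, feedback inhibitors of NF-kB from the other lists, did not pass, with log2 fold changes of 0.18 ± 0.13 and -0.20 ± 0.23.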

How the data were processed

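For 6 RNA sequencing libraries the authors deposited 1 table of counts, whole numbers with no normalization, with a row for each Entrez gene ID. Tools named in the submitters' processing notes, without their roles, are TopHat, DESeq, bcl2fastq and CASAVA 1.8, and the build is mm10 (GRCm38). How reads were assigned to genes, with which annotation, strand setting and filters, is not given in the sources used here. Symbols and coordinates came from RefSeq (GRCm38.p6; 23976 IDs matched), exon lengths from GENCODE M21, and promoter sequences from RefSeq. Groups came from the sample titles. Groups were compared with edgeR 4.0.16 in R 4.3.3 (quasi-likelihood F test) with TMM normalization, filterByExpr and a model of siRNA group alone, with p-values adjusted over 14190 genes. CPM values use the TMM factors, and the SE is the absolute log2 fold change over the square root of F. Alternatives were DESeq2 1.42.0, limma-voom (3.58.1), library size scaling, robust shrinkage, no filter, at least 1 CPM in 3 libraries, and leaving out each library. On simulated counts for the 14190 genes, with 200 of them changed, 24.8% of genes changed 1.5-fold and 71.9% of those changed 2-fold were recovered. Of the simulated calls 6.54% were genes that had not been changed. In the data themselves 2743 genes were called, so the recovered shares need not hold there. No pair of libraries agreed within sampling noise: chi-square per degree of freedom was at least 18.9. The rule for named genes took the 10 genes, Wt1 and up to 4 called genes per list with the smallest p. It also took ligands, receptors or kinases needed to say that they were not detected. Last, it took the 3 genes most like the one with the smallest p, with clone and predicted-gene names left out. Pgam5, Ipmk, Ppm1b, Ifngr1, Ifngr2, Cxcl1, Cxcl5, Chuk, Ikbkg, Bid, Fas, Tnfrsf10b, Tnfsf10, Tnfaip3, Nfkbia and the chromosomal neighbours were named after their values were seen. So were the markers Col1a1, Col3a1 and Pdgfra. The 10 genes, the lists, the ratios and the motifs were chosen with earlier results of these data known. Values of some genes that the rule takes are not reported here.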

Additional observations from a re-analysis of the deposited data

How the results depend on the processing

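Of 120 values of the 10 genes under 12 alternatives, 101 kept their direction and side of the threshold, 8 lost a call (Casp8 and Tnfrsf1a with a library left out), 1 gained one (Ripk1) and 10 changed sign, all for genes that were not called. With library size scaling the log2 fold changes of Fadd, Mlkl and Traf2 were -0.025, -0.0047 and -0.069, and the number of lower genes among the 10 was 3. Under that scaling 855 of all genes tested were higher, and the median log2 fold change over all genes tested was -0.0824. With a library left out the log2 fold change ranged from -0.024 to 0.11 for Fadd, -0.19 to 0.084 for Ripk3, -0.0082 to 0.16 for Mlkl, -0.029 to 0.047 for Traf2 and -0.25 to 0.17 for Birc3. Of the 10 genes 0 to 1 were then higher and 1 to 2 lower. Over all genes 578 to 1253 were then higher and 785 to 1406 lower, and in the other pathway genes 7 to 13 higher and 16 to 21 lower. Such fits have fewer libraries, and the cause of these differences was not tested. Of the 37 called genes of the other lists, 22 were past the threshold under all alternatives that gave a value and 0 changed sign. No paired analysis was run. The libraries are numbered through both groups, and the labels do not tell whether libraries of different groups share a culture or animal. Depth sets the floor of 3 counts. Some genes near it, such as Tnfrsf25 with 0 to 20 reads per library, were not tested. Others, such as Cxcl5, also with 0 to 20 reads per library, were tested.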
